A study of Mus musculus with 2 samples.

Results

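Tendon-like FAPs (fibro/adipogenic progenitors, the interstitial mesenchymal cells of skeletal muscle) made up 398 of the 8481 cells of 2 droplet libraries. These cells, called members below, were selected on measured values. A cell was a member where *Chad*, *Tnmd* and *Cilp2*, the gate genes, together had at least 3 UMIs (unique molecular identifiers, each counted as 1 RNA molecule) and where P was below 25. P is the number of UMIs of *Pi16*, *Sema3c*, *Anxa3* and *Efemp1*, genes high in the Dpp4+ class of FAPs, per 10000 UMIs of the cell. The 7 genes of the rule describe the members and support no statement about them.

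The study compared sorted FAPs with and without a conditional knockout of *Bap1*, which encodes a nuclear deubiquitinase. One library came from a Bap1f/f littermate control (*Bap1* WT) and the other from Prx1-Cre; Bap1f/f tissue (*Bap1* ΔMPC), both C57BL/6 and 3-week-old, so the control also carries the floxed alleles. Limb muscle was dissociated and sorted for 7AAD–Lin–Vcam1–Sca1+ cells, with CD45 and CD31 as the lineage stains, and counted with a 10x Chromium 3′ kit. Prx1-Cre recombines in the early limb mesenchyme, so it is not specific to FAPs, and the labels do not say whether mice were pooled.

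There were 4103 cells with 51015705 UMIs in all, at a median depth of 12232, in the library labelled *Bap1* WT. There were 4378 cells with 49540066 UMIs, at a median depth of 11017.5, in the one labelled *Bap1* ΔMPC. Pairs of values are given in this order throughout. With 1 library per genotype nothing was tested between genotypes, and each difference is one between these libraries, with no replicate check. Intervals are exact at 95% (Clopper-Pearson for shares, Poisson for levels and ratios) and cover counting error only. The libraries shared 5 cell barcodes, of which 1 belonged to a member, and no barcode was a member in both.

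*Bap1* was read first, as the gene that the labels name as deleted. It had 897 UMIs or 17.6 CPM (UMIs scaled to a total of 1000000, interval 16.5 to 18.8) in the library labelled *Bap1* WT. In the library labelled *Bap1* ΔMPC it had 1072 UMIs or 21.6 CPM (20.4 to 23.0). The level was therefore not lower in the library labelled as deleted. Members alone had 32 UMIs or 18.3 CPM (12.6 to 25.9) and 66 UMIs or 19.7 CPM (15.2 to 25.02). Counts per gene do not show which exons a transcript carries, and 3′ reads from outside a deleted part check nothing, so the libraries are called by their labels and each direction drawn from them rests on those labels.

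Tendon is a dense tissue of parallel collagen fibres made by tenocytes, fibroblast-like cells whose progenitors switch on the transcription factor scleraxis (*Scx*). Tenomodulin (*Tnmd*) is a membrane protein of mature tenocytes, while chondroadherin (*Chad*) and cartilage intermediate layer protein 2 (*Cilp2*) are matrix proteins shared by tendon and cartilage. Tenocytes coat their collagen fibres with small leucine-rich proteoglycans such as fibromodulin and with oligomeric glycoproteins such as COMP, and where muscle meets tendon and fascia such cells lie next to the muscle's own connective tissue.

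Members made up 127 of 4103 cells, or 3.095% (2.59 to 3.67), in the library labelled *Bap1* WT. In the library labelled *Bap1* ΔMPC they made up 271 of 4378 cells, or 6.19% (5.49 to 6.94). The share was thus 2.00 times as high there, and the intervals do not overlap. Among cells with P below 25 the shares were 4.16% (3.48 to 4.93) and 8.67% (7.70 to 9.71). With every cell thinned to 6000 UMIs before the rule was applied, 78 of 3879 cells (2.01%) and 196 of 3996 cells (4.90%) were members, a ratio of 2.44. The ratio was smallest, 1.76, with a minimum of 2 gate UMIs and largest, 4.41, with *Tnmd* left out of the gate. Because the gate genes set the membership, this share describes how many cells carry their RNA and not how many cells of a fixed identity each library holds.

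P, a value of the rule, was below 5 in 82 of the 127 and 218 of the 271 members, beside 1769 of the 3053 and 2030 of the 3127 cells with P below 25. Cells with P of 25 or higher, the Dpp4+-like side, reached 3 gate UMIs in 4 of 1050 cases (0.381%) and 14 of 1251 cases (1.12%). Members were deeper than the reference cells used below, with medians of 13278 and 11981 UMIs beside 11749.5 and 10628, and those with 10 or more gate UMIs had medians of 16272 and 12818.

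*Tnmd* carried most of the gate. It had 978 of the 1192 gate UMIs of the 127 members and 2778 of the 4410 gate UMIs of the 271 members. It was the leading gate gene of 114 and 193 members. *Cilp2* led 8 and 33 members, *Chad* led 5 and 37, and 8 members of the library labelled *Bap1* ΔMPC had a tie. *Chad* and *Cilp2* thus led a minority of members in each library, which describes the gate and nothing beyond it. Most members had UMIs of 1 gate gene alone (93 of 127 and 148 of 271), while 27 and 100 had 2 of the genes, and 7 and 23 had all 3. Gate UMIs per member ran from 3 to 50 with a median of 7 in the library labelled *Bap1* WT, and from 3 to 394 with a median of 9 in the other. A single member of the library labelled *Bap1* ΔMPC held 245 of the 935 *Chad* UMIs of that library's members. In the mm10 build *Tnmd* lies on chromosome X (133850980 to 133865577), *Chad* on chromosome 11 (94565047 to 94569127) and *Cilp2* on chromosome 8 (69880369 to 69887687), which are 3 different chromosomes.

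What the members carry beyond the gate was read against reference cells, the 2720 and 2636 cells of the same library with P below 25 and no UMI of the 3 gate genes. UMIs were summed over the cells of each side and divided by the side's total. A gene entered with at least 20 UMIs in the members, or with at least 20 expected there at the reference level, and 7973 and 9804 genes did. Over 2-fold higher in members were 147 genes (1.84% of those entered) and 402 genes (4.10%). Over 2-fold lower were 189 genes (2.37%) and 344 genes (3.51%). Of the 7919 genes that entered in both libraries, 83 (1.05%) were over 2-fold higher in both, 82 (1.04%) were over 2-fold lower in both, and 12 were past 2-fold in opposite directions. The medians over all genes entered were -0.06 and -0.01 on the log2 scale, close to 0 in each library.

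The 2 markers named with the gate genes, *Comp* and *Fmod*, played no part in the rule. They were chosen with earlier results of these data known, so their levels describe the members and are no independent check of the name. *Comp*, the gene of a pentameric glycoprotein that binds collagen, had 118 CPM (102 to 135) in the members and 20.9 CPM in the reference cells of the first library. In the second it had 1126 CPM (1090 to 1163) in the members and 70.9 CPM in the reference cells. The log2 ratios of members over reference cells were 2.49 (2.26 to 2.72) and 3.99 (3.91 to 4.07). *Comp* was spread very unevenly among the members of the first library, where the 10 richest cells held 86.8% of its UMIs, and more evenly in the second, where they held 29.1%. *Fmod*, the gene of fibromodulin, which limits the thickness of collagen fibrils, had 433 CPM (403 to 465) in the members and 40.9 CPM in the reference cells of the first library. In the other library it had 289 CPM (271 to 308) and 3.98 CPM. Its log2 ratios were 3.40 (3.27 to 3.53) and 6.18 (5.90 to 6.47). The first became 2.55 without the 10 members with the most gate UMIs, and the second 5.51 when all cells with P below 25 outside the members served as reference. The larger ratio in the library labelled *Bap1* ΔMPC came with a lower reference level, not with a higher level in members. *Fmod* lies on chromosome 1 (134037254 to 134048277) and *Comp* on chromosome 8 (70373558 to 70382066), the chromosome of *Cilp2*.

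Of the remaining fixed tendon markers, *Scx*, *Kera* and *Thbs4* stood higher in the members of both libraries. *Scx*, the scleraxis gene, had 13.2 CPM (8.36 to 19.8) against 0.49 CPM in the reference cells, and 27.7 CPM (22.4 to 33.9) against 1.52 CPM. Its log2 ratios were 4.75 (3.77 to 5.77) and 4.18 (3.65 to 4.74), on 23 and 93 UMIs. *Kera*, which encodes the keratan sulfate proteoglycan keratocan, had 157 CPM (139 to 177) against 5.85 CPM, and 260.4 CPM (243 to 278) against 14.8 CPM. The log2 ratios of *Kera* were 4.75 (4.48 to 5.02) and 4.14 (3.97 to 4.31), and the first became 3.67 after thinning. *Thbs4*, the gene of thrombospondin 4, a glycoprotein abundant at the junction of muscle and tendon, had 509 CPM (476 to 544) against 166 CPM, and 2283 CPM (2232 to 2335) against 224 CPM. Its log2 ratios were 1.62 (1.51 to 1.72) and 3.35 (3.30 to 3.40), and the first became 2.21 after thinning. *Mkx*, a homeobox gene of tenocytes, had 6 and 20 UMIs in the members and entered only in the library labelled *Bap1* ΔMPC. At the level of summed counts the name tendon-like thus describes these fixed markers, with *Mkx* near the limit of detection. The name was not tested independently, since the lists were chosen with earlier results of these data known.

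Per cell the same markers were found in part of the members. After thinning to 6000 UMIs, which left out 2 and 10 members, at least 1 of *Comp*, *Fmod*, *Scx*, *Mkx*, *Thbs4* and *Kera* was found in 84 of 125 members (67.2%, 58.2 to 75.3) and in 234 of 261 (89.7%, 85.3 to 93.1). In thinned reference cells the shares were 27.4% and 28.4%, and in thinned cells with P of 25 or higher they were 11.3% and 12.1%. Before thinning the members' shares were 74.8% and 93.0%. At least 2 of the 6 markers were found in 32.8% and 58.2% of thinned members, beside 3.19% and 5.21% of reference cells, and at least 3 in 12.0% and 23.4%, beside 0.312% and 0.508%. A sizeable remainder of members, larger in the library labelled *Bap1* WT, thus carried gate UMIs without any of the 6.

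Single genes were read the same way. *Comp* was found in 25 of 127 members (19.7%) and in 189 of 271 (69.7%). After thinning the shares were 12.8% (7.50 to 20.0) and 62.1% (55.9 to 68.0), with 3.00% and 11.2% in reference cells and 0.302% and 3.09% in cells with P of 25 or higher, whose median depths were 13635 and 11661 UMIs. The share of members with *Comp* was therefore far above that of reference cells and of cells with P of 25 or higher in each library. *Fmod* was found in 33.6% (25.4 to 42.6) and 23.0% (18.0 to 28.6) of thinned members, beside 2.02% and 0.686% of cells with P of 25 or higher. Unthinned, 54 of 127 and 68 of 271 members had it. *Fmod* thus ran the other way from *Comp* between the libraries. *Scx* was found in 11 of 127 and 46 of 271 members as deposited, and in 4.0% (1.31 to 9.09) and 8.43% (5.36 to 12.5) after thinning, beside 0.101% and 0.772% of cells with P of 25 or higher. At this depth most members showed no *Scx* UMI, which for a gene of so few counts does not show that they lack its RNA.

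**Figure D1:**
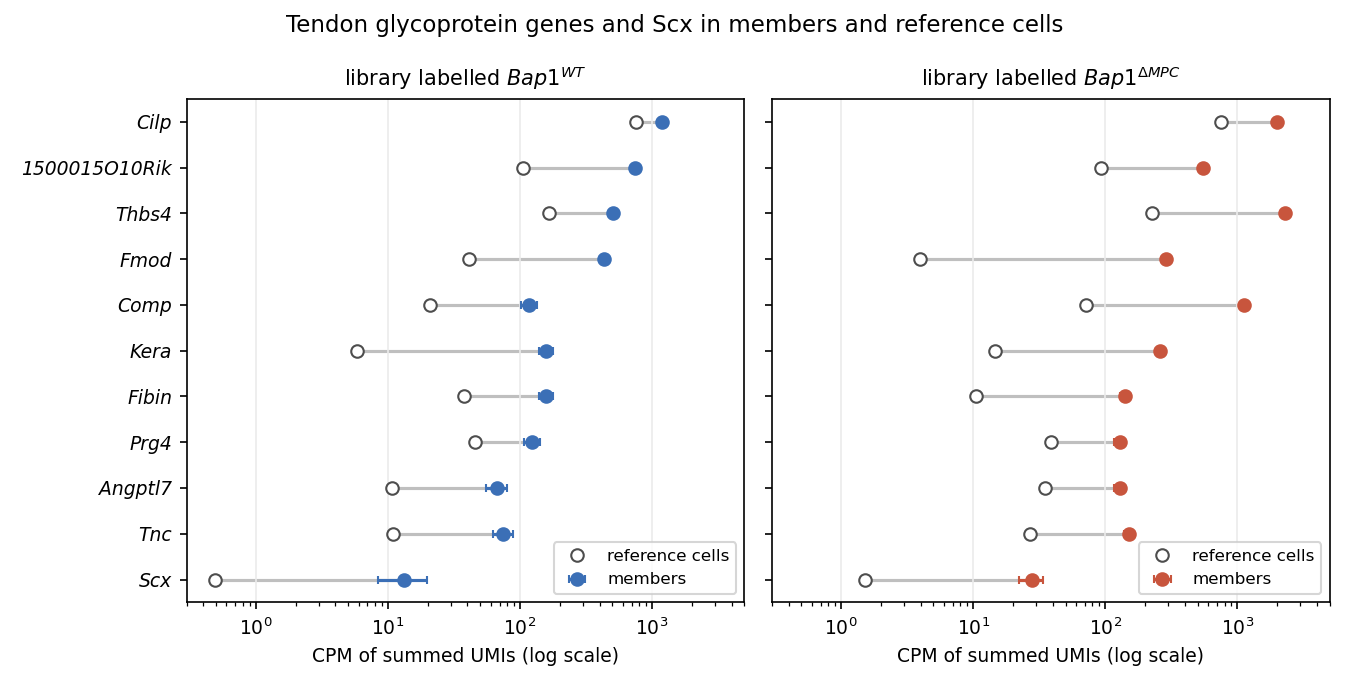
Levels of *Scx* and of 10 tendon glycoprotein genes in CPM on a log axis, for members (filled, with 95% Poisson intervals) and reference cells (open), 1 panel per library. Beside *Scx*, the genes are those over 2-fold higher in both libraries and *Cilp*, so the figure leaves out the rest of the list, such as *Mfap4* and *Tnxb*. Levels ran from 1187 against 759.7 CPM for *Cilp* to 13.2 against 0.49 CPM for *Scx* in the library labelled *Bap1* WT.

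Gate UMIs ran across the threshold without a gap. In the library labelled *Bap1* WT, 46 cells with P below 25 had 2 gate UMIs and 29 had exactly 3. *Fmod* stood at 26.4 CPM (14.4 to 44.3) in the former and 198 CPM (154 to 250) in the latter, and *Kera* at 0 UMIs and 51.5 CPM (30.5 to 81.5). In the library labelled *Bap1* ΔMPC, 53 cells had 2 gate UMIs and 34 had 3. There *Comp* stood at 567 CPM (509 to 631) and 703 CPM (621 to 792), while *Fmod* stood at 91.8 CPM (69.1 to 119) and 13.1 CPM (4.26 to 30.6), and *Kera* at 81.7 CPM (60.5 to 108) and 0 UMIs. Cells just outside the rule in that library thus already had much of the members' *Comp*, and across the threshold *Fmod* and *Kera* rose in 1 library and fell in the other. Members with 10 or more gate UMIs, 39 and 129 cells, had the highest *Col11a1*, at 324 CPM (280 to 372) and 238 CPM (216 to 262). These members also had the highest *Fmod*, at 866 CPM (794 to 943) and 509 CPM (476 to 544). Not every gene peaked there: in the library labelled *Bap1* WT their *Comp*, 64.7 CPM, was below the 180 CPM of members with 5 to 9, and *Kera*, 186 CPM, below the 410 CPM of members with 4.

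**Figure D2:**
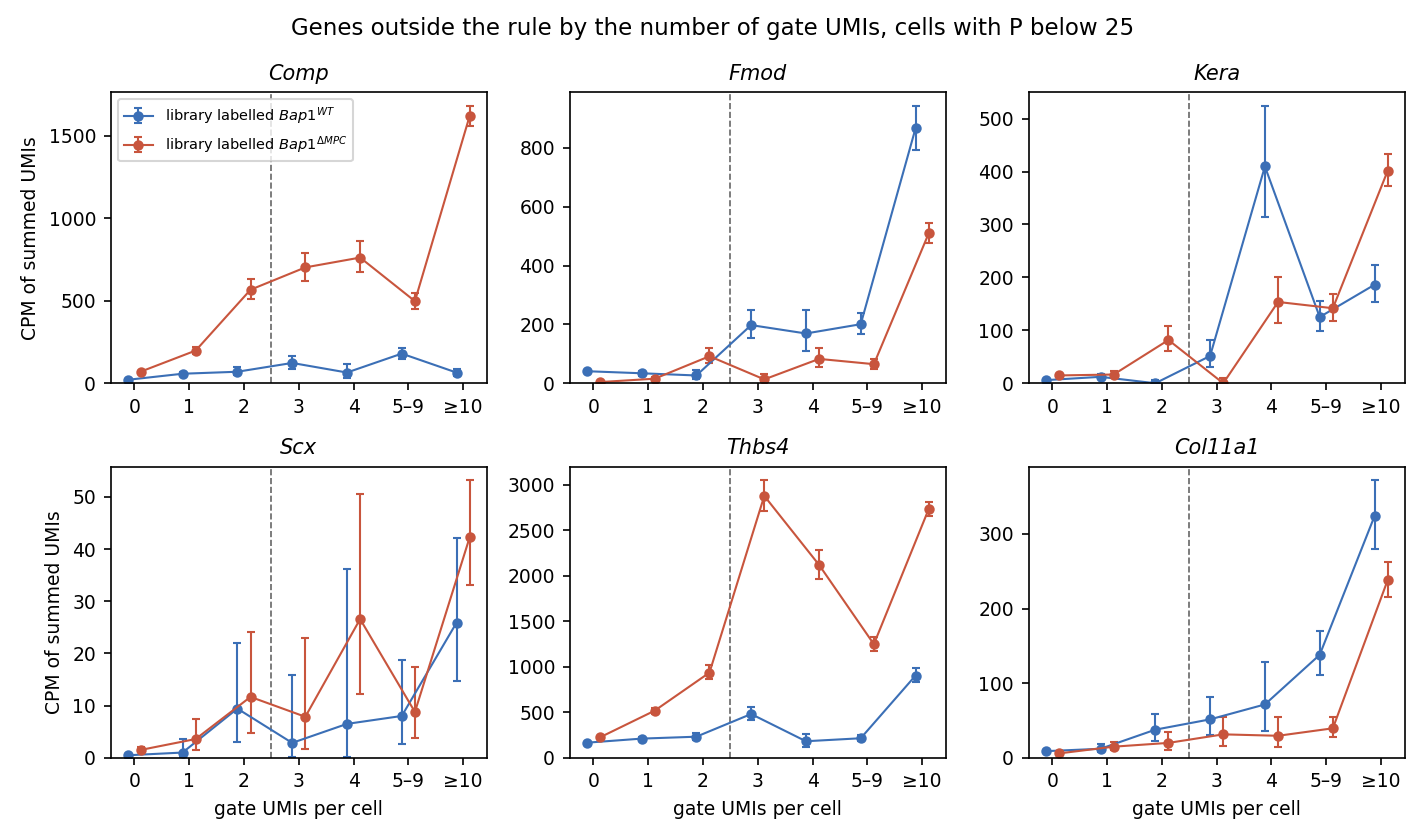
CPM of 6 genes outside the rule against the number of gate UMIs per cell, for cells with P below 25 in each library, with 95% Poisson intervals. The dashed line marks the rule, and *Col11a1* ran from 8.91 and 5.89 CPM in cells with no gate UMI to 324 and 238 CPM in cells with 10 or more.

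Among transcription factors and other regulators of tendon, 12 genes were listed and 7 entered in both libraries. Of these, 2 were over 2-fold higher in both, *Scx* and *Etv4*, and none was over 2-fold lower in both. The median log2 ratios of the genes entered were 0.31 and 1.25, beside -0.06 and -0.01 over all genes, and the first turned to -0.60 after thinning and to -0.28 with entry at 50 UMIs. *Etv4*, an ETS factor induced by FGF signals, had 21.8 CPM (15.4 to 29.9) against 10.1 CPM, and 14.9 CPM (11.1 to 19.6) against 4.43 CPM. The first ratio, 1.11 on the log2 scale, became 0.90 when all cells with P below 25 outside the members served as reference. *Egr1*, an immediate early gene that rises in loaded tendon and also when tissue is dissociated, was the most abundant, with 2138 CPM against 2598 CPM and 2622 CPM against 2957 CPM. Its relative *Egr2* was lower in members of the first library, with 22.4 CPM against 48.7 CPM, a log2 ratio of -1.12 that became -0.61 after thinning. In the second library it had 62.6 CPM against 83.6 CPM. *Nfatc4* differed by under 2-fold in both. Taken alone, the first library had 2 of 7 regulators over 2-fold higher and the second 5 of 9. Few of the listed regulators other than *Scx* thus set the members apart in both libraries.

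Tendon glycoproteins formed the list that stood out most by count. The files hold 23 of the 24 listed genes, all 23 entered in both libraries, 9 were over 2-fold higher in both and none was over 2-fold lower in both. The medians were 0.64 and 0.68. Besides *Comp*, *Fmod*, *Kera* and *Thbs4* the 9 included *Tnc*, *Prg4*, *Angptl7*, *Fibin* and 1500015O10Rik. *Tnc*, the tenascin C gene, had 74.5 CPM (62.3 to 88.5) against 10.996 CPM, and 152 CPM (139 to 165) against 27.0 CPM. *Prg4*, the gene of the lubricating proteoglycan of joint and tendon surfaces, had 123 CPM (107 to 141) against 45.4 CPM, and 128 CPM (117 to 141) against 39.0 CPM. The log2 ratio of *Prg4* between the members of the libraries was 0.06, and -0.62 after thinning. 1500015O10Rik, which encodes the secreted peptide precursor augurin, was found in 106 of 127 and 199 of 271 members, with 747 CPM (707 to 788) against 106 CPM and 551 CPM (526 to 577) against 92.5 CPM. *Angptl7*, an angiopoietin-like secreted protein gene, had log2 ratios of 2.63 (2.31 to 2.93) and 1.88 (1.72 to 2.05). Without the 10 members of each library with the most gate UMIs these became 2.02 and 1.19, so part of its level sat in a few cells. *Fibin*, which encodes a secreted factor first described in fin development, had log2 ratios of 2.05 (1.86 to 2.24) and 3.73 (3.52 to 3.95), on member levels of 157 and 141 CPM. *Cilp*, the close relative of the gate gene *Cilp2*, rose less, with 1187 CPM against 759.7 CPM and 1991 CPM against 745 CPM. *Mfap4*, *Dpt* and *Tnxb*, abundant glycoproteins of all fibrous connective tissue, stayed within 2-fold of the reference in both libraries. In the first library the most abundant gene of the list, *Mfap4*, thus did not set the members apart, while in the second *Thbs4* was itself the most abundant.

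Of the small leucine-rich proteoglycans 12 genes entered in both libraries, 2 were over 2-fold higher in both, *Fmod* and *Kera*, and none was lower, with medians of 0.07 and 0.06. The second library alone had 5 of 13 over 2-fold higher, and its median became 0.63 after thinning and 0.69 with entry at 50 UMIs. Decorin (*Dcn*), the most abundant, had 13450.2 CPM against 15226.5 CPM and 10801 CPM against 12890.4 CPM. *Bgn*, for biglycan, was near the reference in the first library and 1.61-fold higher in the second. *Aspn* and *Ogn*, for asporin and osteoglycin, had log2 ratios of 0.54 and 0.53 in the library labelled *Bap1* WT and 1.17 and 1.11 in the other. *Aspn* fell under 2-fold there (0.91) after thinning.

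Fibrillar and associated collagens had the highest sum of the lists, 102017 CPM against 90356.6 CPM and 52512 CPM against 53885 CPM. Of 17 genes entered in both libraries, 3 were over 2-fold higher in both, *Col11a1*, *Col12a1* and *Col8a2*, and none was lower, with medians of 0.28 and 0.10. *Col1a1*, the main chain of tendon collagen, had 30463 CPM in members against 22818 CPM in the reference, and 12965 CPM against 10231 CPM. *Col1a2* and *Col3a1* likewise differed by under 1.5-fold in each library. *Col11a1*, the gene of a minor fibrillar chain that seeds thin fibrils in cartilage and young tendon, was among the strongest differences of all, with 181 CPM (161 to 202) against 8.91 CPM and 139.7 CPM (127 to 153) against 5.89 CPM. Its log2 ratios of 4.34 (4.11 to 4.58) and 4.57 (4.31 to 4.83) were close in both libraries, on UMIs from 65 of 127 and 88 of 271 members. *Col12a1*, for a collagen that sits on fibril surfaces, had log2 ratios of 1.33 (1.12 to 1.53) and 1.66 (1.54 to 1.77), the first of which became 0.99 without the 10 members with the most gate UMIs. *Col8a2*, for a network-forming collagen, had ratios of 1.77 (1.45 to 2.07) and 2.86 (2.64 to 3.07). Of 30 genes for collagen processing entered in both libraries, 1 was higher in both, *P3h2*, and 1 lower in both, *Adamts14*, with medians of 0.01 and -0.01. *P3h2* hydroxylates collagen prolines and had 13.8 CPM against 4.23 CPM and 21.7 CPM against 1.87 CPM. *Sparc*, *Serpinh1*, *Ppib* and *Pcolce*, the abundant genes of that list, stayed within 2-fold. The members thus differed by over 2-fold in 3 minor collagens, and by under 1.5-fold in *Col1a1*, *Col1a2* and *Col3a1*.

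Cartilage genes were present only in part. Of 29 listed, 27 are in the files and 9 entered in both libraries; 3 were over 2-fold higher in both, *Col11a1*, *Matn4* and *Wif1*, and none was lower. The medians were 0.27 and 0.87, the first of which became -0.08 without the 10 members with the most gate UMIs, and the list summed to 572 CPM against 401 CPM and 907 CPM against 727 CPM, with *Col11a1* the most abundant gene in the first library and *Matn2* in the second. Several defining cartilage genes had no counts: *Col2a1*, *Col9a1*, *Matn1*, *Matn3*, *Ucma* and *Ihh* had no UMI in the members of the library labelled *Bap1* WT, and *Matn1*, *Cnmd*, *Cytl1*, *Ucma* and *Ihh* had none in the other. *Sox9*, the transcription factor of chondrocytes that tendon insertions share, stood at the reference level, with 33.8 CPM against 37.9 CPM and 77.5 CPM against 72.5 CPM. *Acan*, for aggrecan, was found in 1 of 127 members and 0 of 2720 reference cells, and in 15 of 271 members and 5 of 2636 reference cells, where 10 members held 89.8% of its 49 UMIs. At least 1 of the fixed cartilage markers *Acan*, *Col2a1*, *Sox9*, *Matn3* and *Cnmd* was found in 18.4% and 25.7% of thinned members, beside 14.5% and 24.0% of reference cells, and at least 2 in 0 of 127 and 13 of 271 members as deposited, beside 4 of 2720 and 12 of 2636 reference cells. *Cnmd*, for chondromodulin, the nearest relative of tenomodulin, had 29 UMIs in members of the library labelled *Bap1* WT and 0 in the other. *Matn4*, a matrilin gene, had log2 ratios of 1.46 and 2.19, which became 0.93 and 0.79 among members led by *Tnmd*, and the first 0.84 without the 10 members with the most gate UMIs. *Wif1*, a secreted Wnt inhibitor, rested on 7 and 8 members, with 59 and 26 UMIs. Before thinning, 36 of 127 and 97 of 271 members had a UMI of any of the 5 fixed cartilage markers, so most members had none.

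Elastic fibre genes had medians of -0.23 and -0.08, with none of 14 genes higher in both libraries and 1, *Emilin2*, lower in both. *Eln*, for elastin, had 1326 CPM against 1321 CPM and 2512 CPM against 795 CPM, so that it stood above the reference in the second library alone. The 10 richest members held 53.2% and 45.0% of its UMIs, and members led by *Tnmd* in the second library had 1693 CPM. Basement membrane genes stood lower as a list. Of 19 entered in both libraries, none was over 2-fold higher in both and 4 were over 2-fold lower in both, with medians of -0.75 and -0.91. *Lamb1*, a laminin chain, had 146 CPM against 468 CPM and 98.9 CPM against 290.4 CPM. *Col4a1*, a chain of the basement membrane's collagen, had 677 CPM against 1640 CPM and 764 CPM against 2003 CPM. *Col18a1* had log2 ratios of -1.33 and -1.32, and *Sparcl1*, for a secreted relative of SPARC, of -2.29 and -1.12, which became -2.95 and -1.94 with 5 gate UMIs. *Nid1* and *Hspg2*, for nidogen and perlecan, were lower by less than 2-fold. Of the matrix lists this one had the lowest medians in both libraries.

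**Figure D3:**
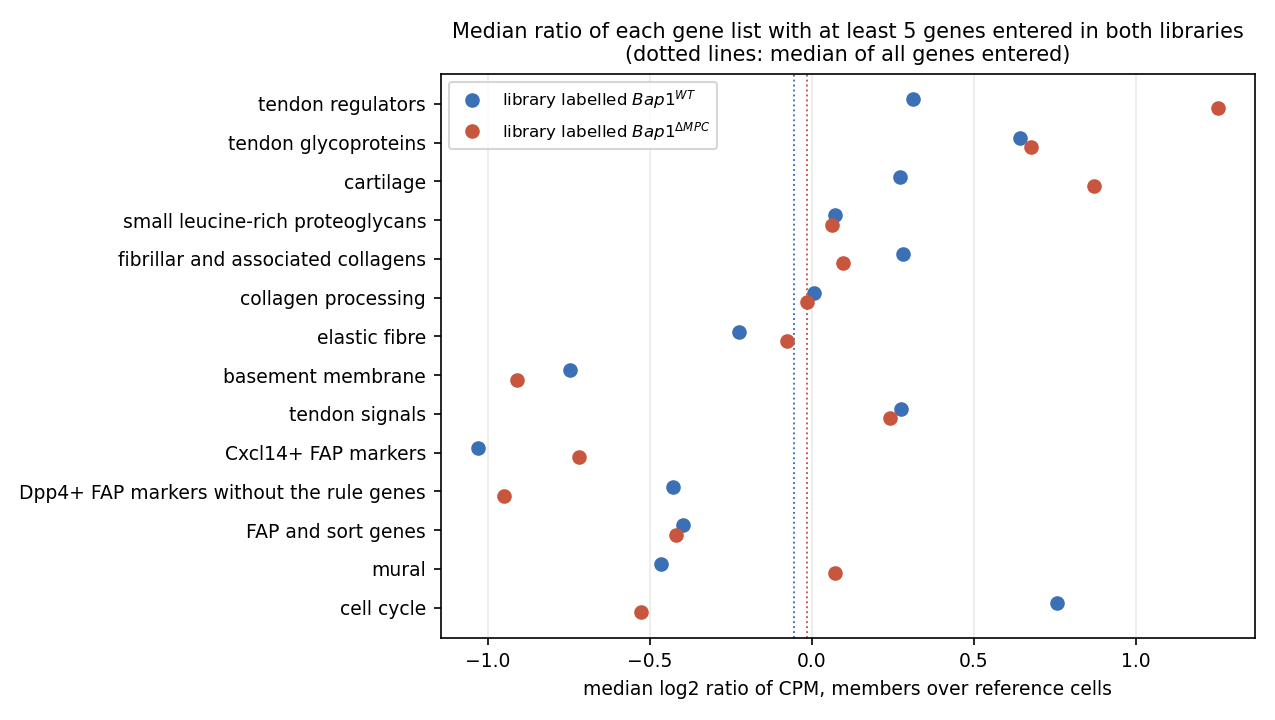
Median log2 ratio of members over reference cells for each gene list with at least 5 genes entered in both libraries, 1 point per library, with dotted lines at the medians of all genes entered (-0.06 and -0.01). Tendon glycoproteins (0.64 and 0.68) lay to the right in both libraries and basement membrane genes (-0.75 and -0.91) to the left.

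Signals known to act in tendon were listed as 44 genes, of which 36 entered in both libraries. Of these 2 were over 2-fold higher in both, *Dkk2* and *Wif1*, and 4 were over 2-fold lower in both, *Gdf10*, *Gli1*, *Ptch1* and *Hhip*, with medians of 0.27 and 0.24. *Dkk2*, a secreted modulator of Wnt signals, had 404 CPM against 98.3 CPM and 190.1 CPM against 83.7 CPM. *Gli1* had 5.16 CPM against 16.7 CPM and 7.75 CPM against 20.8 CPM. *Ptch1*, the Hedgehog receptor, had log2 ratios of -1.05 and -1.05, on 10 and 25 UMIs, the second of which became -0.82 with a minimum of 5 gate UMIs and -0.98 among members led by *Tnmd*. *Hhip*, a Hedgehog antagonist gene, had ratios of -4.14 (-5.77 to -2.92) and -1.33 (-1.70 to -0.98). In the library labelled *Bap1* ΔMPC 11 members held all 67 *Hhip* UMIs. *Gdf10*, a BMP-related factor gene, had log2 ratios of -1.04 and -1.26, of which the first became -0.98 without the 10 members with the most gate UMIs and the second -0.95 after thinning. The abundant signals *Igfbp6*, *Igf1*, *Postn* and *Sfrp4* each ran higher in members of the library labelled *Bap1* WT, by 1.22-fold to 2.10-fold, the largest of which, that of *Sfrp4*, fell from 1.07 to 0.63 on the log2 scale without the 10 members with the most gate UMIs. In the other library *Igfbp6* and *Igf1* were below the reference instead, at -0.53 and -0.46. Their direction thus differed between the libraries, while *Postn* and *Sfrp4* stood close to the reference there, at 0.24 and 0.08.

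Of the genes that define and sort FAPs, *Pdgfra*, *Ly6a* and *Cd34* were found in most members. Of 10 FAP and sort genes entered in both libraries none was over 2-fold higher in both and 1 was over 2-fold lower in both, with medians of -0.40 and -0.42. *Pdgfra*, the receptor gene that marks FAPs, had 339 CPM against 386 CPM and 269 CPM against 360 CPM. *Ly6a*, which encodes the sorted antigen Sca1, was found in 122 of 127 and 250 of 271 members, with 1365 CPM against 1228 CPM and 943 CPM against 1683 CPM. *Ptprc*, the gene of the excluded antigen CD45, had no UMI in any member, and *Pecam1*, the gene of CD31, had 3 and 10 UMIs in all. *Thy1*, a surface marker of fibroblasts, was the gene lower in both, with 73.4 CPM against 232 CPM and 70.9 CPM against 322 CPM. *Cd34*, another surface marker of FAPs, had 567 CPM against 798 CPM and 309 CPM against 930.4 CPM. After thinning it was found in 85.6% and 59.8% of members and in 96.4% and 93.2% of reference cells. The members therefore carried the RNAs that mark FAPs, with *Thy1* alone past 2-fold lower in both libraries.

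Markers of the main classes of FAPs had medians below 0. Of 10 Cxcl14+ markers entered in both libraries none was higher in both and 2 were lower in both, *Sparcl1* and *Col4a1*, with medians of -1.03 and -0.72. *Cxcl14* itself had 236 CPM against 314 CPM and 481 CPM against 1022 CPM, *Smoc2* 758 CPM against 1370 CPM and 228 CPM against 573 CPM. Of 6 Dpp4+ markers outside the rule, none was higher in both and 1, *Efhd1*, was lower in both, with medians of -0.43 and -0.95. Summed, the Dpp4+ markers had 1393 CPM against 1159 CPM in the first library, led by *Igfbp5* with 1087 CPM against 739 CPM, and 1153 CPM against 2031 CPM in the second. P already limits this class.

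Genes of other cell types were read as whole lists, summed over the members and set beside the reference cells. Synovial lining genes summed to 326 CPM against 293 CPM and 597 CPM against 461 CPM, with medians of 0.94 (0.49 after thinning) and 1.84 (0.80 among members led by *Tnmd*), above those of the tendon glycoproteins; all 7 are in the files, 3 entered in both libraries, 1 (*Prg4*) was higher in both, 4 of 6 were over 2-fold higher in the second, *Has1* led in the first library and *Hbegf* in the second, and *Tspan15* had no UMI in the first. Osteoblast genes summed to 52.2 CPM against 47.1 CPM and 76.3 CPM against 79.6 CPM, with 1 of 11 entered in both, *Pth1r* the most abundant, and *Sp7*, *Ibsp*, *Dmp1* and *Mepe* at 0 UMIs in both. Those 4 genes of bone were thus absent from the members' counts. Schwann cell genes summed to 95.2 CPM against 57.8 CPM and 131 CPM against 136 CPM, led by *Ncam1*, with 2 of 8 entered in both and *Sox10* and *Cdh19* at 0 in both. Perineurial genes summed to 33.8 CPM against 70.0 CPM and 53.0 CPM against 110.1 CPM, with 2 of 9 entered in both, both lower (*Ptch1* and *Adamtsl2*, the latter most abundant). Muscle genes summed to 83.1 CPM against 79.4 CPM and 20.9 CPM against 53.1 CPM, led by *Mylpf*, with 4 of 13 entered in both and *Pax7*, *Myf5*, *Myod1* and *Myog* at 0. The medians of the 4 were 0.25 and -1.43, of which the first became -0.60 with 5 gate UMIs, and the highest in the first library was *Tnni2*, with 16.1 CPM against 8.64 CPM.

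Mural genes summed to 108 CPM against 133 CPM and 152 CPM against 117 CPM, led by *Cspg4*, with 5 of 9 entered in both, none past 2-fold one way in both and *Rgs5*, *Myh11* and *Mcam* at 0 in the first library. Endothelial genes summed to 38.4 CPM against 56.7 CPM and 21.2 CPM against 79.4 CPM, led by *Kdr* and *Tek*, with 1 of 8 entered in both, *Tek*, which was lower in both, and *Cldn5* at 0 in both. Immune genes summed to 8.03 CPM against 9.83 CPM and 17.0 CPM against 17.9 CPM, led by *Csf1r* and *Cd68*, with none of 10 entered in both and *Ptprc*, *Adgre1*, *Cd3e* and *Itgam* at 0 in both. Adipocyte genes summed to 7.45 CPM against 10.6 CPM and 31.9 CPM against 132 CPM, led by *Fabp4*, with none of 9 entered in both and *Lep*, *Cfd* and *Retn* at 0 in both. Members thus carried less adipocyte RNA than the reference cells of the library labelled *Bap1* ΔMPC, where it summed highest. Cell cycle genes summed to 153 CPM against 88.8 CPM and 124 CPM against 175 CPM, with 8 of 12 entered in both and medians of 0.76 and -0.53, the first of which became -0.79 with 5 gate UMIs. *Ube2c*, the most abundant in the first library, came from 3 of 127 and 2 of 271 members, and *Pcna*, the most abundant in the second, from 22 and 58. The part that any of these lists plays in the differences between members and reference cells was not tested.

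The genes with the largest ratios in the same direction in both libraries were taken from those with at least 50 UMIs in each, in members for the higher and in reference cells for the lower, and came partly from outside the lists. *Egfl6*, for a matrix protein with EGF repeats, had 146 CPM (129 to 165) against 14.2 CPM and 65.8 CPM (57.4 to 75.1) against 7.58 CPM. *Chodl*, for the membrane lectin chondrolectin, had log2 ratios of 3.11 (2.66 to 3.56) and 3.58 (3.13 to 4.02), on UMIs from 19 and 29 members. *Cadm1*, a cell adhesion gene, had 58.5 CPM against 7.11 CPM and 65.8 CPM against 13.3 CPM. These genes were rare in cells with P of 25 or higher as well, at 0.708 and 0.203 CPM for *Egfl6* and 0.638 and 1.08 CPM for *Cadm1*. *Cpxm2*, of the carboxypeptidase family, had 268 CPM against 42.9 CPM and 199.6 CPM against 17.1 CPM. *Clu*, the gene of the secreted chaperone clusterin, had 612 CPM against 105 CPM and 472 CPM against 97.2 CPM, in 82 of 127 and 157 of 271 members. *Lgr5*, a receptor for R-spondins, had log2 ratios of 2.91 (2.54 to 3.26) and 3.04 (2.62 to 3.47), the second on 13 members and 1.92 among members led by *Tnmd*. *Ddit4l*, an inhibitor of mTOR, had ratios of 2.16 and 2.72. Together with *Comp*, *Fmod*, *Kera*, *Tnc*, *Col11a1*, *Angptl7*, *Fibin* and 1500015O10Rik these are the 15 highest with that minimum, which *Scx* and *Wif1* do not reach.

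Among the 10 lowest genes were *Ccl11*, *Vtn*, *Fmo2*, *Cxcl9*, *Gngt2*, *Heyl*, *Krtdap*, *Adamts14* and D630033O11Rik. *Ccl11*, the eotaxin gene, was the most abundant, with 84.3 CPM against 607 CPM and 38.7 CPM against 468 CPM. Its log2 ratios of -2.85 and -3.60 became -4.26 and -4.71 after thinning. *Vtn*, for the plasma and matrix protein vitronectin, had 6.88 CPM against 112 CPM and 22.6 CPM against 117 CPM. *Cxcl9*, a chemokine that interferon induces, had 7 and 2 UMIs in the members, with log2 ratios of -2.76 (-4.08 to -1.71) and -5.89 (-8.94 to -4.03). *Heyl*, a target of Notch signals, had 7 and 1 UMIs, with ratios of -2.02 (-3.34 to -0.97) and -4.66 (-9.97 to -2.17). *Fmo2*, a flavin monooxygenase gene, had 28.7 CPM against 122 CPM and 1.19 CPM against 18.4 CPM.

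Members were not uniform. Among the 54 and 68 members with an *Fmod* UMI, *Scx* was found in 10 (18.5%) and 24 (35.3%), and among the 73 and 203 without it in 1 (1.37%) and 22 (10.8%). *Angptl7* was found in 38.9% and 30.9% of members with *Fmod*, and in 9.59% and 13.8% of those without. *Kera* was found in 31.5% and 29.4%, beside 13.7% and 11.3%. Members with *Fmod* were deeper, with medians of 14285 and 14174.5 UMIs beside 12913 and 11270, and the part of depth in these shares was not tested. *Comp* did not mark the same subset in the library labelled *Bap1* WT, where *Fmod* was found in 11 of 25 members with *Comp* (44.0%) and 43 of 102 without (42.2%). In the other library these shares were 29.1% and 15.9%. *Prg4* was found in 51.5% and 28.4% of members with *Thbs4* and in 18.6% and 10.4% of those without, whose median depths were 13048 and 10227 UMIs beside 13551 and 12555.

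Members led by *Chad* or *Cilp2* were few, 13 and 70 cells, and were set against those led by *Tnmd*. Of 1362 genes entered in both libraries, here also with at least 50 UMIs in all members together, 9 were over 2-fold higher outside the *Tnmd*-led members in both and 1, *Col6a6*, was over 2-fold higher in the *Tnmd*-led members in both. Higher outside were *Fmod*, at log2 ratios of 1.21 and 1.02, *Lgr5* (1.82 and 2.58), the growth factor gene *Hbegf* (1.84 and 2.63) and the GDNF co-receptor gene *Gfra1* (1.13 and 1.58). *Tmem176b*, *Cpe*, *Arhgdib* and the complement gene *C2* ran the same way, between 1.01 and 2.51. In the library labelled *Bap1* ΔMPC, 1 cell held 54 of the 61 *Lgr5* UMIs outside the *Tnmd*-led members. For *Hbegf*, 1 cell held 237 of the 435 UMIs there. The ratios of *Lgr5* and *Hbegf* in that library thus rest largely on single cells. *Fmod* reached 1082 CPM in the 5 members led by *Chad* and 787 CPM in the 8 led by *Cilp2*, beside 384 CPM in the 114 led by *Tnmd*, in the library labelled *Bap1* WT. In the other library the 37 led by *Chad* had 330.03 CPM, the 33 led by *Cilp2* 640.4 CPM and the 193 led by *Tnmd* 238 CPM. The order differs between the libraries for *Chad* and *Cilp2*, while *Tnmd*-led members were lowest in both. *Comp* had 241 CPM, 452 CPM and 89.5 CPM in members led by *Chad*, *Cilp2* and *Tnmd* in the first library, on 14, 50 and 141 UMIs, and 1396 CPM, 1130.03 CPM and 1039 CPM in the second. In the first library those UMIs came from only 3, 2 and 20 cells. *Kera* was found in 26 of the 114 *Tnmd*-led members and in 1 of the 13 others in the first library. The second had it in 31 of 193 led by *Tnmd*, 3 of 37 led by *Chad* and 8 of 33 led by *Cilp2*.

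Between the libraries, the members themselves were compared, each ratio being CPM of the members labelled *Bap1* ΔMPC divided by CPM of those labelled *Bap1* WT. Of 9844 genes entered, 323 (3.28%) were over 3-fold higher and 181 (1.84%) over 3-fold lower. The median over all genes was 0.17, and scaling by TMM factors, which moved every ratio by -0.17, gave 276 and 245 genes, so the excess of higher genes rests in part on the scaling. In reference cells 13453 genes entered, of which 467 were over 3-fold higher and 281 over 3-fold lower. Of the 323 genes, 314 also entered in reference cells, where 276 were higher by any amount and 95 by over 3-fold. Of the 181 genes, 178 entered there, with 168 lower by any amount and 48 by over 3-fold. Most of these genes thus had the same direction in other FAPs. The share of all genes that ran each way by any amount in reference cells is not given here. These counts therefore show no excess over that share. The sizes of the ratios cannot be compared this way, since the genes were chosen by their ratio in members. Among members led by *Tnmd*, 234 of 258 of the higher genes and 138 of 155 of the lower genes that entered there were past 3-fold. These are 114 of the 127 and 193 of the 271 members that selected the genes. The overlap was thus largely set beforehand and is no repeat.

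Of the tendon glycoproteins, *Comp* was higher in members of the library labelled *Bap1* ΔMPC, 1126 CPM beside 118 CPM, a log2 ratio of 3.26 (3.06 to 3.47). In reference cells the ratio was 1.76, and among *Tnmd*-led members 3.54. Cells with P of 25 or higher had 10.2 CPM of *Comp* beside 0.638 CPM, so its rise was not limited to the members. *Thbs4* was higher as well, 2283 CPM beside 509 CPM, at 2.16 (2.06 to 2.27), with 0.43 in reference cells, and at 1.54 after thinning. *Fmod* did not pass 3-fold: 289 CPM beside 433 CPM, at -0.58 (-0.72 to -0.44), while in reference cells it fell by 3.36. Among members with 10 or more gate UMIs *Fmod* had 509 CPM beside 866 CPM, and among those with 5 to 9 it had 64.8 CPM beside 201 CPM. The first group held 129 of 271 members beside 39 of 127. *Scx* and *Tnc* had ratios of 1.07 (0.40 to 1.80) and 1.02 (0.74 to 1.31). In reference cells the ratios were 1.64 (0.78 to 2.56) and 1.30 (1.11 to 1.48), so the intervals overlap for both genes. The ratio of *Scx* became 0.31 after thinning and 2.39 without the 10 members with the most gate UMIs. *Kera* had 0.73 (0.53 to 0.93), and 1.56 after thinning. Of the 23 glycoprotein genes entered, 2 were over 3-fold higher, *Comp* and *Thbs4*, and 1 lower, *Clec11a* at -1.69, with a median of -0.03. The median gene of the list therefore stood level between the members of the libraries.

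Matrix genes of other lists differed in part. *Eln*, under 3-fold, had 2512 CPM beside 1326 CPM, at 0.92 (0.85 to 0.99), and at 0.37 among members led by *Tnmd*, with -0.73 in reference cells. *Col1a1* and *Col1a2* fell by 1.23 and 1.53, beside -1.16 and -1.19 in reference cells, and *Sparc* fell by 1.06, beside -0.93. The drop in the main collagen RNAs was therefore shared with other FAPs, and that of *Col1a2* was larger in members. Of 19 fibrillar and associated collagens entered, 2 were over 3-fold higher and none lower, with a median of -0.17, and of 15 elastic fibre genes 2 were higher and none lower, with a median of 0.07. Of 23 basement membrane genes 2 were higher and 5 lower, with a median of 0.09, and of 31 collagen processing genes none was higher and 3 lower, with a median of 0.02. Cartilage genes had 2 of 13 higher, *Acan* and *Col11a2*, and 2 lower, *Cnmd* and *Wif1*, with a median of 0.996. Of 13 small leucine-rich proteoglycans none passed 3-fold, with a median of 0.11. Tendon regulators had 1 of 9 higher and tendon signals 3 of 38 higher and 5 lower, with medians of 0.51 and -0.19.

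The lists of other cells moved as follows between the members. Synovial lining genes had 4 of 6 higher (*Htra4*, *Hbegf*, *Tspan15* and *Sphk1*) with a median of 1.80. *Hbegf* fell from 2.23 to 1.40 among members led by *Tnmd*, and *Sphk1* from 1.74 to 1.498 with 5 gate UMIs. Muscle genes had 5 of 5 lower with a median of -1.85, of which *Mylpf* became -1.54 and *Tnnt3* -1.22 with 5 gate UMIs. All of the muscle genes are contractile or metabolic genes of fibres, and members of the library labelled *Bap1* ΔMPC held 70 UMIs of the muscle list beside 145 in the other. Adipocyte genes had 2 of 2 higher with a median of 1.96, on 107 UMIs beside 13, and both ended under 3-fold with 5 gate UMIs (*Fabp4* 0.91, *Pparg* 1.37). Osteoblast genes had 1 of 2 higher (1.67), perineurial genes 1 of 4 higher and 1 lower (0.79), Schwann cell genes none of 2 (0.54), and mural genes 2 of 6 higher and 2 lower (0.21). Of the lower mural genes, *Abcc9* went from -1.79 to -1.22 with 5 gate UMIs and to -1.55 among members led by *Tnmd*, both under 3-fold. Endothelial genes had 1 of 2 lower (-1.72), immune genes 1 of 2 higher (1.75) and cell cycle genes none of 11 (-0.44). FAP and sort genes had none of 10 past 3-fold (-0.19), Cxcl14+ markers 1 of 10 lower, *Smoc2*, which became -1.41 after thinning (0.52), and Dpp4+ markers 2 of 6 higher (0.20). Of these 2, *Ifi27l2a* went from 1.83 to 1.55, under 3-fold, with each cell given equal weight. The part of these cells' RNA in the members' ratios was not tested.

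The 8 highest ratios with at least 50 UMIs belonged to genes nearly absent from the members of the library labelled *Bap1* WT. *Saa1* and *Saa2*, for the acute phase protein serum amyloid A, had 1 UMI each there and 241 and 104 in the other library. Their log2 ratios were 6.97 (4.48 to 12.28) and 5.76 (3.25 to 11.07), and 10 members held 96.7% of the *Saa1* UMIs, and 9 held all those of *Saa2*. *Epha7*, an ephrin receptor gene, had 1 and 97 UMIs, a ratio of 5.66 (3.14 to 10.97), from 54 members. It was thus less tied to single cells than the *Saa* genes. *Adamts8*, a metalloproteinase gene, had 0 and 254 UMIs, with 27 members carrying it. With a floor of 3 counts in place of the 0 it was 44.0-fold higher. On the log2 scale this is 5.46, and the exact lower limit is 5.15. *S100g*, a calcium-binding protein gene, had 1 and 87 UMIs, 61 of them in 1 cell (5.50, 2.98 to 10.82, and 3.80 without the 10 members with the most gate UMIs), *Dmkn*, for dermokine, 1 and 60 UMIs from 4 members (4.96, 2.43 to 10.29), and *Inhbb*, an activin subunit gene, 1 and 51 UMIs (4.73, 2.18 to 10.06). *Htra4*, a serine protease gene, had 4 and 223 UMIs, at 4.86 (3.48 to 6.74), and 3.54 among *Tnmd*-led members. Thinning left 0 UMIs of all but *Htra4* in members labelled *Bap1* WT. The thinned values of the others, from 1.73 for *Epha7* to 3.09 for *Adamts8*, are thus set by the floor of 3 counts and are not measured ratios. With so few counts in 1 library, the wide intervals leave the size of these ratios largely unmeasured.

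The 8 lowest ratios, from genes with the same minimum, rested on 4 to 179 UMIs in members labelled *Bap1* ΔMPC. *Sfrp2*, a secreted Wnt modulator, had 1336 UMIs or 766 CPM in members labelled *Bap1* WT and 179 UMIs or 53.3 CPM in the other, a log2 ratio of -3.84 (-4.08 to -3.62) beside -2.41 in reference cells. *Cpz*, a carboxypeptidase gene that acts in Wnt signals, had 251 CPM and 22.9 CPM, at -3.45 (-3.82 to -3.10) beside -2.28. *Col4a4*, a basement membrane collagen chain, had 52.2 CPM and 3.57 CPM, at -3.87 (-4.87 to -2.99) beside -1.28. *Fmo2* was lowest, at -4.59 (-6.52 to -3.14) beside -2.73. *Clec1a* (-4.27), *Plekha6* (-4.01), *Bckdhb* (-3.94) and *Prss12* (-3.48) completed the group. With 5 gate UMIs *Fmo2* became -3.73 and *Clec1a* -3.52, after thinning *Clec1a* became -3.07 and *Bckdhb* -4.79, and among members led by *Tnmd* *Fmo2* became -6.12 and *Plekha6* -5.04. Each of the 8 was lower in reference cells of the library labelled *Bap1* ΔMPC too.

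**Figure D4:**
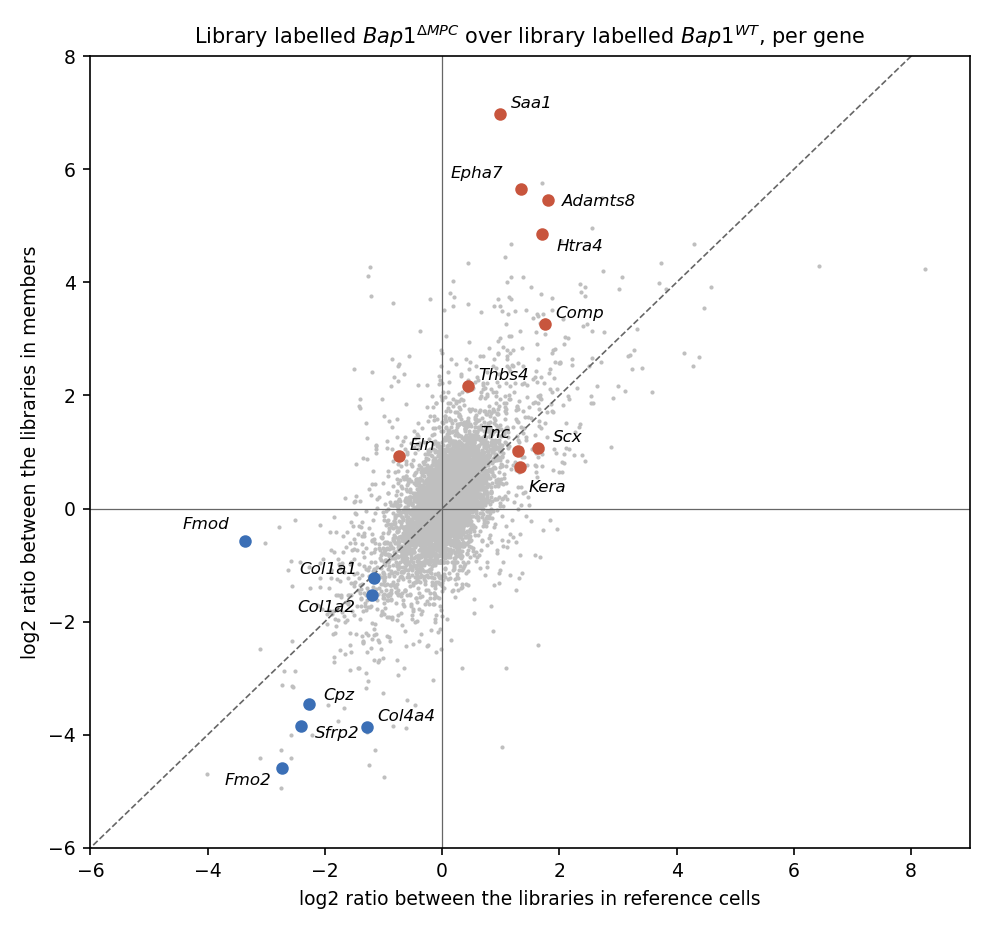
Log2 ratio between the libraries (CPM under label *Bap1* ΔMPC divided by CPM under label *Bap1* WT) for each of the genes entered, in members (vertical) against reference cells (horizontal), with selected genes coloured and a dashed line of equal ratios. *Comp* (3.26 against 1.76) and *Thbs4* (2.16 against 0.43) lie above the line and *Fmod* (-0.58 against -3.36) far to its left. *Adamts8*, at 0 UMIs in the members of 1 library, is drawn with a floor of 3 counts in place of the 0.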

How the data were processed

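Both files hold raw UMI counts per gene and cell, as deposited by the authors, who aligned reads to mm10 and filtered cells for quality, doublets and other cell types at thresholds that are not stated. The submitters' processing notes name FastQC 0.11.7, bcl2fastq 2.20.0, Cell Ranger 3.1.0, R 3.6.1 and Seurat 3.2.1. All 31053 genes and 8481 cells were used. The members and the gene lists were chosen with earlier results of these data known.

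Counts were summed over cells, divided by the total and compared as ratios of CPM, a 0 being replaced by a floor of 3 counts per library, with the 7 rule genes left out. No test was run. Code was tested on simulated data. Cells were thinned without replacement (seed 7). Python 3.11.15, numpy 2.4.6, scipy 1.17.1, matplotlib 3.10.9 and R 4.3.3 were used, edgeR 4.0.16 for TMM factors alone, and scanpy 1.11.5 for Scrublet, which called 5 of 8481 cells and no member, after the authors' own doublet removal. Gene positions come from GENCODE vM21.

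Genes were named by rule: the rule genes, *Comp*, *Fmod* and *Bap1*; from each of 22 lists (324 genes) those over 2-fold in both libraries in one direction and up to 4 others with the most UMIs; the 15 highest and 10 lowest in both libraries with 50 or more UMIs where higher; the 8 highest and 8 lowest between libraries with 50 or more UMIs; and up to 8 per direction between members led by different gate genes. *Acan*, *Cnmd*, *Mkx*, *Clec11a*, *Col11a2* and *Tspan15* are named as fixed markers or list members past a fold, after their values were seen. Some genes that these rules select are not reported here.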

Additional observations from a re-analysis of the deposited data

Results flagged for a closer look

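Genes with at least 50 UMIs in all members are listed by either of 2 criteria. By the first, a gene was over 3-fold between the libraries in members and over 2-fold the other way in reference cells. By the second, it entered in both libraries and was over 2-fold between members and reference cells in opposite directions in them. Genes that did not enter in the library labelled *Bap1* WT, such as *Saa1* and *Epha7*, are not listed under the second. None of these differences was tested.

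Between the libraries, as log2 of *Bap1* ΔMPC over *Bap1* WT, *Angpt4* had -2.42 in members and 1.64 in reference cells. *Ccdc3* had 4.11 and -1.27. *Retreg1* had 2.46 and -1.50, and *Slc7a2* had 1.77 and -1.40. The haemoglobin genes *Hba-a1* and *Hbb-bs* had 2.42 and 4.28 in members and -1.19 and -1.22 in reference cells, and 194 of the 224 *Hbb-bs* UMIs of the members labelled *Bap1* ΔMPC came from 1 cell.

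Between members and reference cells, *Angpt4* had log2 ratios of 2.29 under label *Bap1* WT and -1.78 in the other library, *Bckdhb* 1.33 and -1.33, and *Cenpf* 1.59 and -1.12. The opposite order held for *Ccdc3* (-3.30 and 2.08), *Hbb-bs* (-3.37 and 2.13), *Retreg1* (-2.01 and 1.95), *Epha3* (-1.94 and 1.06), *Tagln* (-1.55 and 1.05, the second of which became -0.21 after thinning), *Serpine2* (-1.22 and 1.15), *Enpp1* (-1.07 and 1.35) and *Fhl2* (-1.06 and 1.06).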

How the results depend on the processing

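No paired analysis was possible, since there is 1 library per genotype. The share of members, 3.095% and 6.19%, became 4.22% and 7.40% with 2 gate UMIs, 2.07% and 4.75% with 5 gate UMIs, 2.01% and 4.90% after thinning, and 0.585% and 2.58% without *Tnmd*. Without *Chad* the second share became 5.46%. Under every alternative the second library had the larger share.

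Genes over 2-fold higher in members, 147 and 402, became 89 and 263 after thinning, 75 and 259 with entry at 50 UMIs, 2810 and 2170 with no minimum and 67 and 216 at a fold of 3. Genes over 2-fold lower, 189 and 344, became 86 and 222 with entry at 50 UMIs, 800 and 944 with no minimum and 68 and 138 at a fold of 3, and the first became 110 after thinning. Genes over 3-fold between the libraries, 323 higher and 181 lower, became 152 and 101 with entry at 50 UMIs and 745 and 457 at a fold of 2. A stricter entry or fold tests or calls fewer genes by construction; for thinning the cause was not tested.

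Of 435 single genes and list medians under these alternatives, 3538 values stayed within the main value's counting interval, 640 fell outside it, and 1 that was past its fold reversed: *Tagln* in the library labelled *Bap1* ΔMPC, 1.05, became -0.21 after thinning. With thinning alone, 171 values stayed within the interval, 178 fell outside it and that 1 reversed. A far larger part of the values thus moved under thinning than the pooled counts show. The rule was applied again after thinning, which left 78 and 196 members. Depth, fewer counts and the changed set of cells cannot be told apart here. Of values under their fold 83 changed sign, 35 of them outside the interval, such as *Ube2c* between the libraries, -1.15, which became 3.96 with 5 gate UMIs. Many of the values within could barely move: leaving out called doublets, none of them a member, gave 435 of these, and the entry limits, which cannot change a single gene's ratio, gave 362 and 296. The alternatives with members led by *Tnmd* alone, and without the 10 members with the most gate UMIs, were chosen after seeing the data. Genes with few UMIs in the members limit every ratio, and thinning lowers them further.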
